A study of Mus musculus with 3 samples.

Results

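Leukotrienes and prostaglandins are lipid mediators made from arachidonic acid, and 9 genes of their synthesis and breakdown were followed here in single cells of the mouse meninges. The genes were Alox5, Alox5ap, Lta4h and Ltc4s of leukotriene synthesis, the cyclooxygenases Ptgs1 and Ptgs2, the prostaglandin D2 synthases Hpgds and Ptgds, and Hpgd, which inactivates prostaglandins. They were taken by symbol and are 9 of the 27998 genes in the deposited matrices. Male C57BL/6J mice aged 10 to 12 weeks were either left in the home cage without stress (HC) or put through chronic social defeat (CSD) for 14 days. The CSD pool held defeated mice identified as stress-susceptible in behavioural tests that included urine scent marking and the open field. Meninges of 4 mice were pooled per library, which gave 2 HC libraries and 1 CSD library, all prepared with 10x 3′ v2 chemistry on 1 chip with a lane for each. Meninges were digested with collagenase D and DNase I, and live nucleated singlets were sorted with no lineage gate, so every cell type that survived digestion could enter. Because CSD is a single pool, an effect of stress and a peculiarity of that pool cannot be told apart.

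Leukotriene synthesis begins when 5-lipoxygenase, encoded by Alox5, oxidises arachidonic acid that its membrane partner, encoded by Alox5ap, presents to it. The unstable product leukotriene A4 is then turned into the neutrophil attractant leukotriene B4 by the hydrolase Lta4h, or into the cysteinyl leukotriene C4 by the synthase Ltc4s. Cyclooxygenases make prostaglandin H2, from which prostaglandin D2 is formed by the haematopoietic synthase Hpgds or by the lipocalin-type synthase Ptgds, a known product of leptomeningeal cells. Hpgd starts the breakdown of prostaglandins by oxidising them.

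A barcode was kept as a cell when it held at least 500 unique molecular identifiers (UMIs, each counting 1 captured RNA molecule), a number of detected genes within fixed lower and upper limits, and less than 8.3% mitochondrial UMIs. Values of the libraries are given throughout in the order HC replicate 1, HC replicate 2, CSD. They held 2599, 1702 and 2756 cells, and any pair of libraries shared 3 to 8 cell barcodes. HC replicate 2 stood apart in the share of its UMIs found in barcodes of at most 100 UMIs, here called empty droplets: this was 24.1%, against 7.87% for the other HC library and 5.48% for CSD. Clustering, with the pathway genes left out, gave 24 clusters, and 12 named cell types had at least 20 cells in every library. The microglia-like and olfactory sensory neuron-like clusters carried their defining genes in all 3 libraries although the tissue is labelled meninges. The lowest UMI count came from Ptgs2, with 317 UMIs in all cells, and the highest from Alox5ap, with 24767. Levels below are a gene's UMIs per 1000000 UMIs of all genes (CPM), summed over the cells of a type in a library, and are compared between cell types but not between genes. In summed counts, fewer cells of a subtype and less RNA per cell cannot be told apart. Fibroblast-like cells numbered only 22 in the CSD library, against 127 and 89 in the HC libraries.

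**Figure D1:**
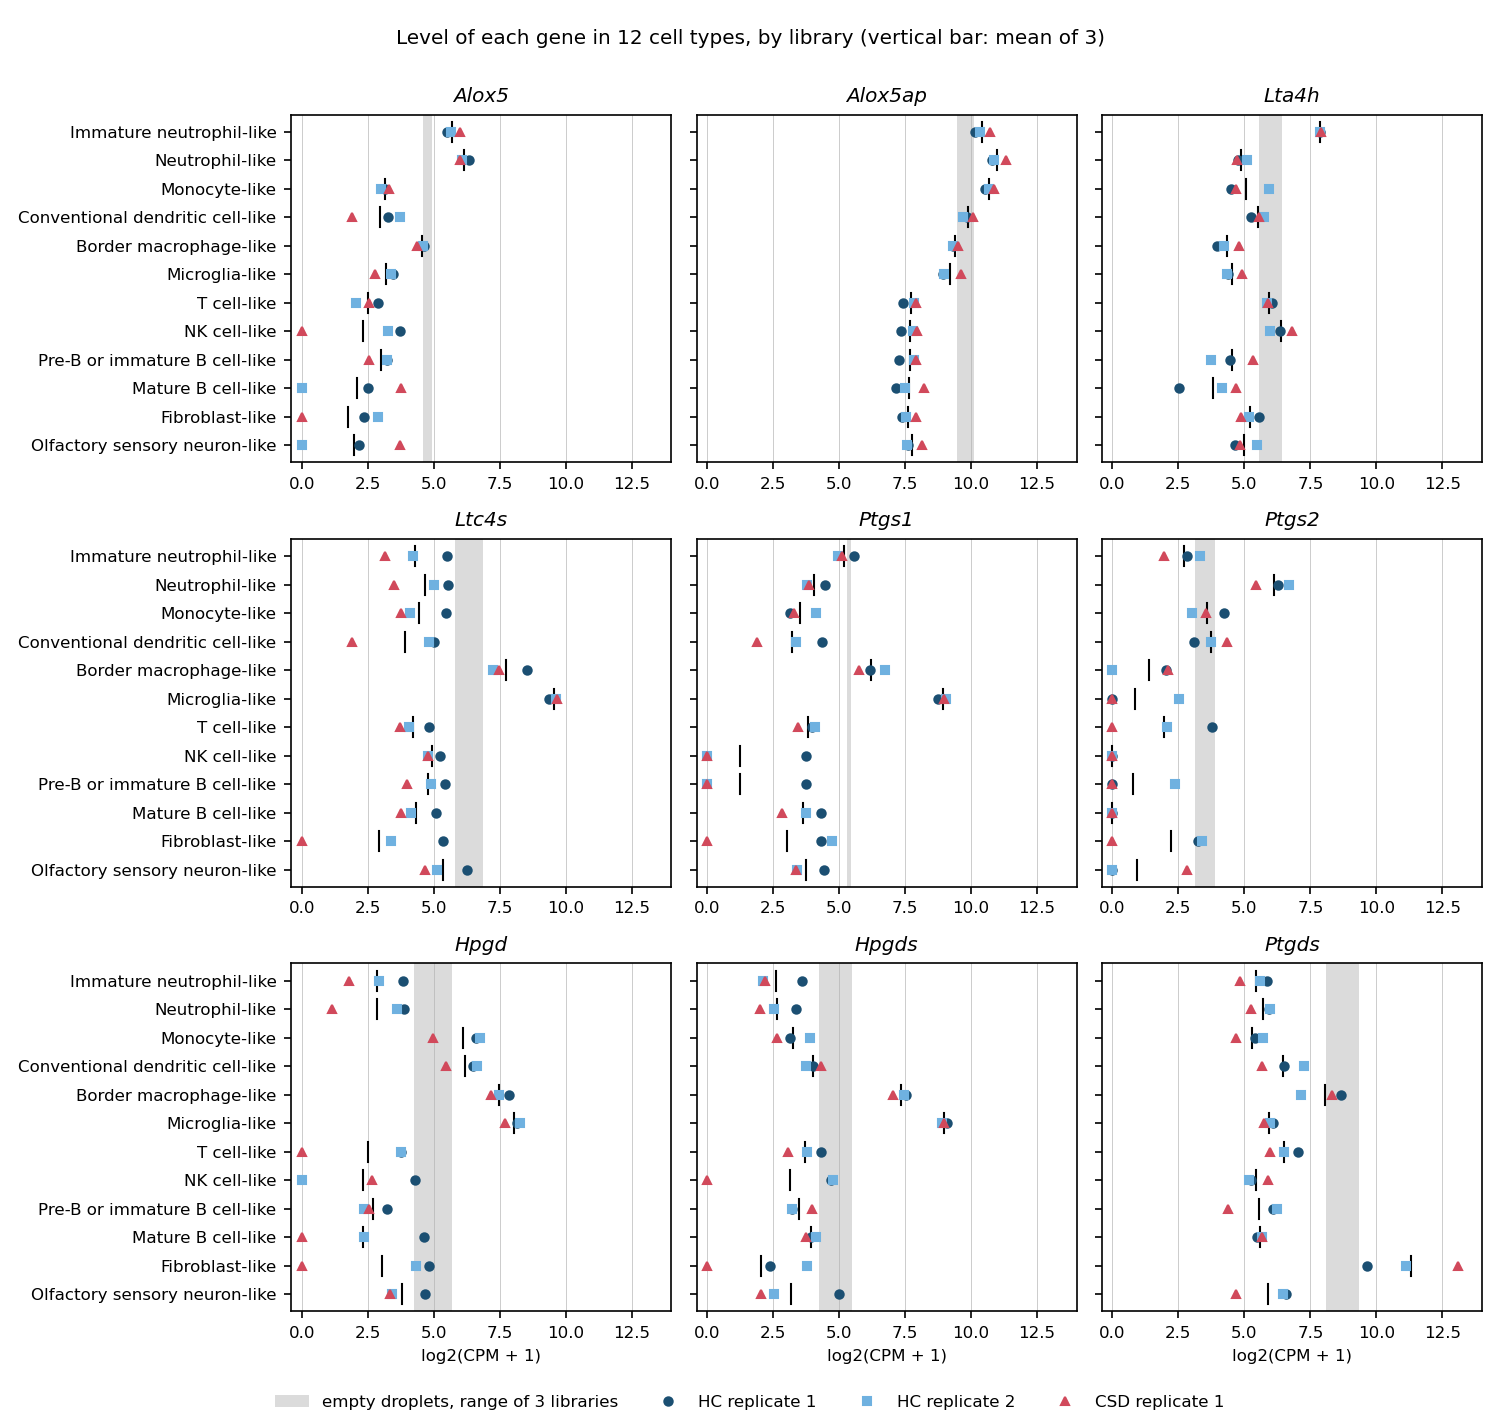
Level of each of the 9 genes, as log2(CPM + 1) on the horizontal axis, in the 12 named cell types with at least 20 cells in every library. Each point is 1 library and the grey band spans the empty droplets of the 3 libraries. Alox5, Alox5ap and Ptgs2 were highest in neutrophil-like cells, Lta4h in immature neutrophil-like cells, Ltc4s, Ptgs1, Hpgd and Hpgds in microglia-like cells and Ptgds in fibroblast-like cells.

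Among leukotriene genes, Alox5 (ENSMUSG00000025701; mm10, chromosome 6, 116410077 to 116461178, minus strand) was highest in neutrophil-like cells. Its level there was 79.5, 66.4 and 62.6 CPM, or 69.5 ± 8.85 (SD, n = 3 libraries). Immature neutrophil-like cells held 44.0, 49.8 and 62.2 CPM, so the library ranges of the neighbouring types nearly touched without overlapping. Border macrophage-like cells followed at 22.5 ± 2.21 CPM, a narrow range that overlapped neither immature neutrophil-like nor microglia-like cells but lay close to or below the empty droplets, at 23.1, 29.6 and 23.2 CPM. All other tested types lay at or below the 8.42 ± 2.28 CPM of microglia-like cells. Mast cell or basophil-like cells, too few to be tested, held 233, 332 and 117 CPM on 13, 11 and 9 UMIs.

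Alox5ap (ENSMUSG00000060063; chromosome 5, 149264767 to 149288153, plus strand) held its highest levels in myeloid cells. Neutrophil-like cells held 1776, 1855 and 2583 CPM. Monocyte-like cells held 1470, 1624 and 1885 CPM, and immature neutrophil-like cells 1139, 1311 and 1677 CPM. Each of these types overlapped the next in its range over libraries, but within each library the order was the same. Conventional dendritic cell-like cells, at 942 ± 120 CPM, lay below all of these and above border macrophage-like cells at 665 ± 56.3 CPM. Border macrophage-like and microglia-like cells, the latter at 595 ± 162 CPM, overlapped. Both were below the empty droplets of their own library, at 710, 842 and 1105 CPM, in every library, and conventional dendritic cell-like cells in 2 of 3. Lymphoid, fibroblast-like and olfactory sensory neuron-like cells were close together, at means of 196 to 223 CPM, which was also below the empty droplets.

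Lta4h (ENSMUSG00000015889; chromosome 10, 93453411 to 93484875, plus strand) had the least variable peak of the 9 genes. Immature neutrophil-like cells held 232, 233 and 238 CPM, or 234 ± 3.25, and no other tested type reached that range. NK cell-like cells came next with 80.0, 61.4 and 111 CPM, and T cell-like cells with 65.5, 57.2 and 59.0 CPM. Their ranges overlapped, with NK cell-like cells the higher in each library. Mature neutrophil-like cells held a mean of only 28.3 CPM, below the empty droplets at 46.3 to 84.0 CPM. Of all Lta4h UMIs in cells, 60.6% came from immature neutrophil-like cells.

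Within the neutrophil lineage the genes ran in opposite directions. Clusters were set in the order of their markers, from cluster 12, whose leading genes included Fcnb and Cebpe, through cluster 2 with Ltf, Camp and Ngp, to clusters 3 and 1 with Retnlg, Mmp8 and Il1b. Lta4h held 273, 297 and 288 CPM in cluster 12 and 199, 209 and 209 CPM in cluster 2. It held 33.8, 42.1 and 31.3 CPM in cluster 3 and 18.7, 23.4 and 17.5 CPM in cluster 1, so none of the 4 clusters overlapped another. Alox5ap ran the other way in its means, from 1024 ± 196 through 1571 ± 316 and 1898 ± 486 to 2269 ± 432 CPM. Alox5 did likewise, from 40.0 ± 14.8 through 58.1 ± 7.35 and 65.8 ± 1.95 to 73.1 ± 16.0 CPM. Ptgs2, the inducible cyclooxygenase, was concentrated at the mature end, with 134 ± 49.6 CPM in cluster 1 against 20.8 ± 9.32 in cluster 3 and under 10 in both immature clusters. Cells of cluster 12 held a median of 9481.5 UMIs, and clusters are defined on the same cells, so these values are a description without a test.

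**Figure D2:**
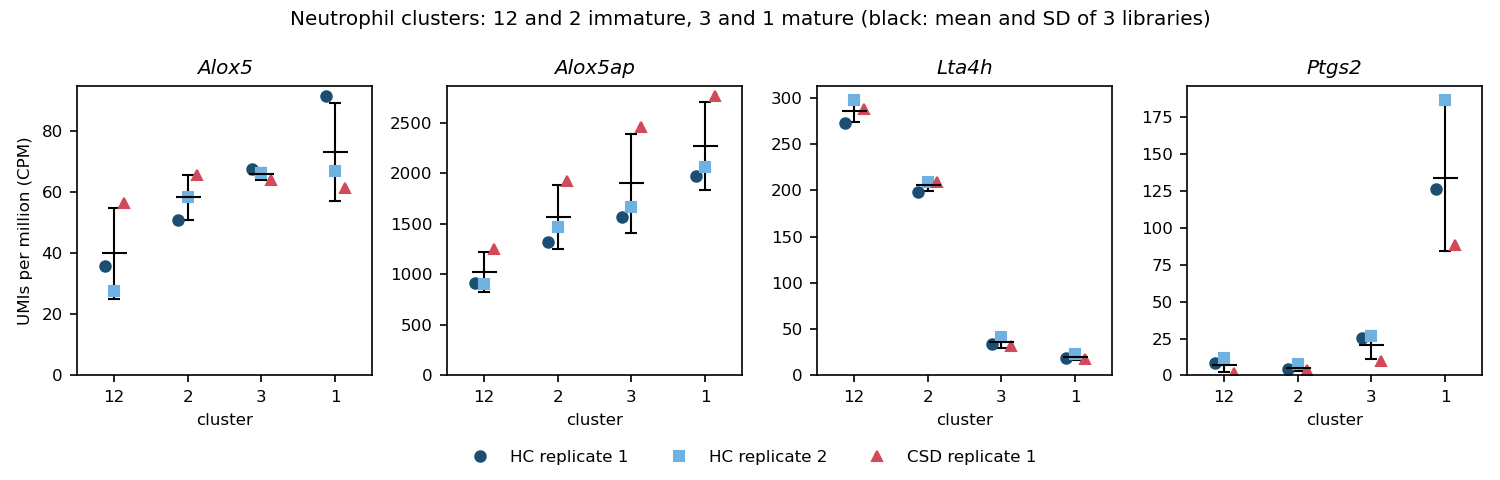
Alox5, Alox5ap, Lta4h and Ptgs2 in the 4 clusters of the neutrophil lineage, immature to mature from left to right, in CPM; points are the 3 libraries and the bar and error are the mean and SD. Mean Lta4h goes down from 286 to 19.8 CPM while Alox5, Alox5ap and Ptgs2 are highest in cluster 1.

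Ltc4s (ENSMUSG00000020377; chromosome 11, 50236461 to 50238616, minus strand), which commits the pathway to cysteinyl leukotrienes, was a microglia-like and macrophage-like gene here. Microglia-like cells held 668, 785 and 822 CPM and border macrophage-like cells 369, 152 and 176 CPM, with no overlap between them or with the next type. Ptgs1 and Hpgds shared this pattern, and the 3 genes are shown together by the bases before their start sites. RefSeq promoters (GRCm38.p6) were found for 8 of the 9 genes, the exception being Alox5ap. Each sequence below gives the 250 bases before the start site, 5′ to 3′ on the strand of the gene, with matches to GGAAGT, a core bound by ETS family factors, in capitals. The windows are chr11:50238533-50238782 (minus strand) for Ltc4s, chr2:36230176-36230425 (plus strand) for Ptgs1 and chr6:65144731-65144980 (minus strand) for Hpgds.
Ltc4s: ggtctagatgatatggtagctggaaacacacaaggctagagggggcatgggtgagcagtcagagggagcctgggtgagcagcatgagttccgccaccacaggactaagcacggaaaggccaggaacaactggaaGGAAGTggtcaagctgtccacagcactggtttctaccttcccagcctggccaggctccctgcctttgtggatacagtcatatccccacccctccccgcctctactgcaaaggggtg
Ptgs1: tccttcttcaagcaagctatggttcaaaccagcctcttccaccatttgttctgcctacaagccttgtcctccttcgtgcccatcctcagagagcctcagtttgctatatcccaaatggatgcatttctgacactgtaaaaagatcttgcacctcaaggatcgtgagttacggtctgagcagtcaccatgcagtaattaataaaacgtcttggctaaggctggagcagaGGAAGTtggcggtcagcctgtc
Hpgds: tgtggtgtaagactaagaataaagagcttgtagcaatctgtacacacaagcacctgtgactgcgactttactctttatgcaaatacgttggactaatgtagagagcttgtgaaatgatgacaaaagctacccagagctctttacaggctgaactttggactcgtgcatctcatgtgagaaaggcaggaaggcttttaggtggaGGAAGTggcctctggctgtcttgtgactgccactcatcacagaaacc
The match began at -116 in Ltc4s, -22 in Ptgs1 and -47 in Hpgds, counted from the RefSeq start site. For Ltc4s and Hpgds that site lies inside the GENCODE gene positions given here, so their windows overlap the gene as placed there. It was the one of 13 motifs searched that was present in these 3 promoters and absent from the other 5, and it was picked for display after the matches were seen. Hpgd, which was also highest in microglia-like cells, is among those 5. The search covered both strands of the 250 bases before and 50 after each start site. GGAAGT was found in 23.8% of all 32851 promoters, and GAGGAA, the PU.1 core, in 28.3% of them and in 7 of the 8 member promoters. Of the other motifs, the SP1 site GGGCGG was in 35.7% of all promoters, the CRE core TGACG in 20.8% and the longer CRE palindrome TGACGTCA, which holds it, in 1.79%. The NF-kB motif was in 20.7%, the RUNX site TGTGGT in 16.8%, the TATA box TATAAA in 13.6% and the C/EBP motif TTGCNNAA in 10.8%, with its stricter form TTGCGCAA in 0.183%. The AP-1 site TGANTCA was in 7.81%, the E-box CACGTG in 7.15% and the MEF2 site TAAAAATA in 2.72%. A match in these letters is a description of the window and not a measured binding site.

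Ptgs1 (ENSMUSG00000047250; chromosome 2, 36230426 to 36252272, plus strand), the constitutive cyclooxygenase, held 432, 533 and 498 CPM in microglia-like cells. Border macrophage-like cells held 70.9, 106 and 53.1 CPM and immature neutrophil-like cells 45.8, 29.9 and 33.2 CPM. These ranges were separate, and the remaining tested types were at or below 15.8 ± 4.499 CPM, under the 38.5 to 42.9 CPM of the empty droplets. Ptgs2 (ENSMUSG00000032487; chromosome 1, 150100031 to 150108227, plus strand) divided from Ptgs1 by cell type. Neutrophil-like cells held 76.4, 103 and 42.4 CPM of Ptgs2, and the next type, conventional dendritic cell-like cells, 7.55, 12.3 and 19.1 CPM. Ptgs2 UMIs were seen in 10.7%, 13.2% and 6.09% of neutrophil-like cells, and no cell held more than 4.

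Hpgds (ENSMUSG00000029919; chromosome 6, 65117293 to 65144908, minus strand) held 547, 471 and 504 CPM in microglia-like cells. Border macrophage-like cells held 185, 176 and 129 CPM, again apart from microglia-like cells and from every other tested type. The next type, NK cell-like cells, had a mean of 16.97 CPM, under the 17.9 to 43.7 CPM of the empty droplets. Ptgds (ENSMUSG00000015090; chromosome 2, 25466709 to 25470046, minus strand), the other prostaglandin D2 synthase, was instead highest in fibroblast-like cells, with 807, 2252 and 8650 CPM on 386, 707 and 620 UMIs. No 2 of these libraries were close, and their mean of 3903 CPM had an SD of 4174. Border macrophage-like cells came next with 401, 141 and 315 CPM. In every library this was below the empty droplets of that library, at 651, 269 and 361 CPM.

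Border macrophage-like cells were made of 2 clusters that differed in these genes. Cluster 15, led by Pf4, Lyve1 and Mrc1, held 629, 551 and 475 CPM of Ltc4s, and cluster 8, led by Ms4a7, Apoe and class II genes such as H2-Eb1, 175, 76.8 and 103 CPM. For Ptgds, cluster 15 held 697, 184 and 492 CPM and cluster 8 179, 133 and 272 CPM. Ltc4s was thus separate between the clusters in all libraries, whereas the Ptgds ranges overlapped. Within each library cluster 15 held more Ptgds than cluster 8. Cluster 15 made up 137 of 316, 10 of 58 and 30 of 125 border macrophage-like cells, so the mix of the type moved between libraries together with its Ltc4s level, and the part of the mix in that level was not tested.

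Hpgd (ENSMUSG00000031613; chromosome 8, 56294585 to 56321043, plus strand) encodes the breakdown enzyme of the group. A gene on its own strand, Gm45540, overlaps it, so reads may be split between them. Microglia-like cells held 283, 304 and 208 CPM and border macrophage-like cells 228, 176 and 143 CPM. Their ranges overlapped, with microglia-like cells the higher in each library. Monocyte-like cells held 96.4, 107 and 30.2 CPM and conventional dendritic cell-like cells 88.4, 98.3 and 43.7 CPM, with the lowest value in CSD in both. Alox5ap, Ltc4s, Ptgs1 and Hpgds are overlapped by genes on the opposite strand.

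The genes most like the members in profile were sought over 36 points, the 12 types in each of the 3 libraries, on the log2(CPM + 1) scale. The points share libraries and cells, so Pearson's r is given as a description. Il1rn, which encodes the interleukin-1 receptor antagonist, followed Alox5 (r = 0.79), and Igsf6 followed Alox5ap (r = 0.91). Lta4h was nearest to Dapk2 (r = 0.70), and Ptgs2 to 1600010M07Rik (r = 0.77). The complement genes C1qc and C1qb led for Ltc4s (r = 0.89) and Hpgds (r = 0.90), and the purine receptor gene P2ry13 for Ptgs1 (r = 0.84). The collagen gene Col14a1 led for Ptgds (r = 0.89).

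CSD was then compared with HC within each cell type. The comparison describes how the CSD pool differed from the HC pools. It cannot separate an effect of defeat from a peculiarity of that pool. Summed UMIs were tested in edgeR by its quasi-likelihood method, and p-values were adjusted after Benjamini and Hochberg over all genes tested in a cell type. The spread between pools could be seen only in the 2 HC libraries, and the CSD pool was assumed to vary like them. That spread is shared by edgeR over all genes of a type. The SE and p of a gene therefore do not measure its own spread between pools. Of 108 pairs of a gene and a type, 33 had a UMI in enough cells to be tested, and 3 passed an adjusted p of 0.05. DESeq2, run as an alternative, called 0 of the 33 member tests and 27 of 25605 tests over all genes, where edgeR called 134. Ptgds rose in fibroblast-like cells, Ptgds fell in olfactory sensory neuron-like cells and Hpgd fell in monocyte-like cells. Ptgs2 passed the filter in no type, its level in neutrophil-like cells being 76.4 and 103 CPM in HC and 42.4 CPM in CSD.

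Ptgds in fibroblast-like cells was higher in CSD than in either HC library, by 2.56 ± 0.25 (SE) on the log2 scale (edgeR adjusted p = 7.25e-12). It was 1 of 2 members tested there, where 0.563% of 3020 genes were called. The HC libraries differed from each other by 1.43 on the same scale, and DESeq2 gave a log2 change of 2.57 with an adjusted p of 0.9998. Over 11 settings it passed in the other 10, with changes of 2.14 to 3.17, and leaving out HC replicate 1 gave 2.01, leaving out the other HC library 3.45. The UMIs sat in few cells: the 3 cells with most Ptgds held 213 of 386, 566 of 707 and 600 of 620 UMIs, and 1 CSD cell alone held 465. The share of fibroblast-like cells with a Ptgds UMI was 37.0%, 40.4% and 36.4%, with no higher share in CSD. Without the 3 highest cells of each library, a split chosen after the values were seen and not tested, the levels were 370, 470 and 309 CPM, and CSD was the lowest.

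Some other fibroblast markers were also highest in CSD in sums over these cells, and their part in the Ptgds level was not tested. Apod and Dcn did not follow Ptgds between the HC libraries, being lower in HC replicate 2, where Ptgds was higher. Apod, a lipocalin gene, held 3429, 1507 and 12780 CPM, Dcn, encoding the matrix proteoglycan decorin, 7419, 4992 and 12501 CPM, and the transporter gene Slc6a13 12.5, 12.7 and 251.2 CPM. Mgp, at 13904, 15759 and 13910 CPM, and Col1a1, at 531, 481 and 516 CPM, did not set CSD apart. The 10 fibroblast markers together summed to 27414, 24259 and 42387 CPM, and the excess of CSD in that sum was that of Apod and Dcn. The list of 10 glial or ensheathing cell markers, which also holds Apod, summed to 4192, 2010 and 13199 CPM in these cells. Apod alone made up most of that sum in every library and all of its excess in CSD. Of the 10 glial or ensheathing cell markers, 2 were seen in over 10% of these cells.

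**Figure D3:**
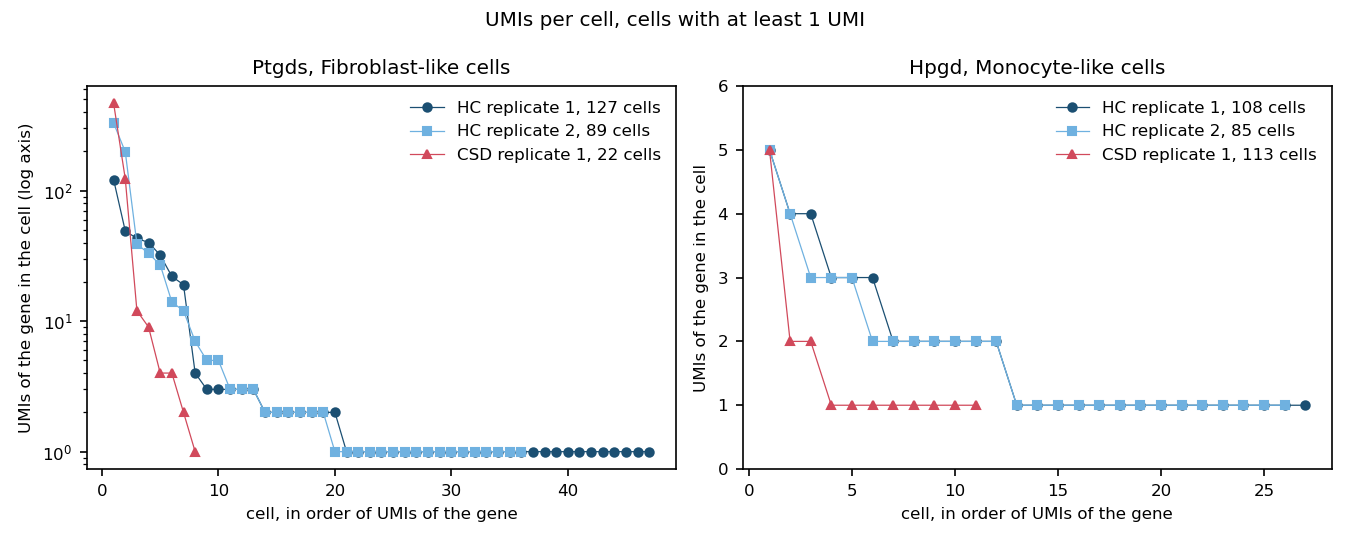
UMIs per cell of Ptgds in fibroblast-like cells (logarithmic axis) and of Hpgd in monocyte-like cells. Each point is 1 cell with at least 1 UMI of the gene, set along the horizontal axis in order of those UMIs, with 1 line per library. The highest Ptgds cell held 121, 329 and 465 UMIs in HC replicate 1, HC replicate 2 and CSD, while no monocyte-like cell held more than 5 Hpgd UMIs.

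Hpgd in monocyte-like cells fell by 1.73 ± 0.40 (SE) on the log2 scale (edgeR adjusted p = 0.00185), from 96.4 and 107 CPM in HC to 30.2 CPM in CSD, on 49, 46 and 17 UMIs. The HC libraries differed by 0.06, and 1.38% of 3046 genes were called in this type, where 3 members were tested. DESeq2 gave a log2 change of -1.74 with an unadjusted p of 0.0132 and called 1 gene in the type, which was not Hpgd. Over 11 settings the change passed in 6 and ran from -1.88 to -1.68. A Hpgd UMI was seen in 27 of 108 and 26 of 85 monocyte-like cells in HC and in 11 of 113 in CSD. The 3 highest cells of each library held 13, 12 and 9 of its Hpgd UMIs. Without them the levels were 73.0, 82.8 and 14.4 CPM, the CSD level on 8 UMIs. This removal takes a larger share from CSD, so it cannot show how far a few cells hold the difference. Marker lists of other cell types went both ways in sums over monocyte-like cells. The neutrophil list, at 2334, 3360 and 3831 CPM, and the erythroid cell list, at 1864, 3486 and 5420 CPM, were highest in CSD. Other lists were lowest in CSD. The 10 border macrophage markers summed to 5244, 3658 and 2554 CPM and the 10 microglia markers to 1632, 1223 and 686 CPM. The mature B cell markers, which include the class II genes H2-Ab1 and Cd74, summed to 2457, 2802 and 1009 CPM. This was not particular to monocyte-like cells, since the same lists were lowest in CSD in neutrophil-like and T cell-like cells. There the border macrophage markers held 3725, 1531 and 1032 CPM and 3301, 1436 and 1025 CPM. In border macrophage-like and microglia-like cells that list was instead highest in CSD. Among the monocyte markers themselves Csf1r held 169, 112 and 92.2 CPM, Vcan 27.6, 39.7 and 149 CPM and Ly6c2 1614, 2165 and 2178 CPM. The part of these markers in the Hpgd level was not tested.

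Hpgd was lower in CSD in all 4 types in which it was tested, but passed only in monocyte-like cells. The difference was -1.09 in conventional dendritic cell-like cells (edgeR adjusted p = 0.381), -0.54 in border macrophage-like cells and -0.49 in microglia-like cells. Its level in the empty droplets was 50.1 and 33.4 CPM in HC and 17.9 CPM in CSD, the same order, and the part of free RNA in the differences was not tested. Neutrophil-like and immature neutrophil-like cells held too little Hpgd, 22 and 35 UMIs in all 3 libraries together, for the change to be compared with that in monocyte-like cells.

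Ptgds in olfactory sensory neuron-like cells fell by 1.90 ± 0.53 (SE) on the log2 scale (edgeR adjusted p = 0.0456), from 93.3 and 86.9 CPM to 24.6 CPM, where 0.751% of 3997 genes were called and 2 members tested. It rested on 27, 18 and 8 UMIs, of which the 3 highest cells held 20, 6 and 3. A Ptgds UMI was held by 13.1%, 35.7% and 11.4% of the cells, so HC replicate 1 lay near CSD in that share. Only HC replicate 2 lay over the 15% of the pooled filter, so Ptgds entered this test through that library. The 10 fibroblast markers summed to 750, 599 and 132 CPM in the same cells. All 3 Ptgds levels were below those of the empty droplets, at 651, 269 and 361 CPM. From genes that these cells should lack, at most 20.4%, 21.1% and 13.9% of their UMIs could be free RNA. The part of free RNA or of fibroblast markers in this difference was not tested, and the call held in 3 of 11 settings, with changes of -5.36 to -1.65.

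In the other 9 types 26 member tests were made, none passed with edgeR, while 0.29% of the 15542 tests over all genes were called. An unadjusted p below 0.05 was found in 7 of the 26 member tests and in 869 of the 15542. DESeq2 called 25 of those tests over all genes and edgeR 45. Ptgds was lower in CSD in conventional dendritic cell-like cells, at 89.5 and 154 CPM against 49.1 CPM, with a difference of -1.23 (edgeR adjusted p = 0.170). In immature neutrophil-like and monocyte-like cells its differences were -0.90 and -0.87, and in border macrophage-like cells it was 0.12, or 1.16 without HC replicate 1.

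Alox5ap was the only member tested in all 12 types, and CSD was its highest library in each, although none passed and, with every cell thinned to 500 UMIs, the difference turned sign in border macrophage-like, T cell-like and NK cell-like cells. The differences ran from 0.21 in border macrophage-like cells to 0.87 in mature B cell-like cells, with a median of 0.45, while those between the HC libraries ran from -0.21 to 0.50. The median over all genes tested in a type lay between -0.03 and -0.00015. In neutrophil-like cells the difference was 0.56 ± 0.16 (SE; edgeR adjusted p = 0.181), and it passed only when genes of at least 20 UMIs were tested instead (0.71, edgeR adjusted p = 0.0368). In immature neutrophil-like cells it was 0.52, and passed only after thinning (0.77, edgeR adjusted p = 0.0345). At that thinned depth 60.3%, 63.2% and 73.7% of neutrophil-like cells held an Alox5ap UMI. The exact (Clopper-Pearson) 95% intervals were 56.1 to 64.3%, 58.1 to 68.0% and 70.7 to 76.5%. That of the CSD library overlapped that of neither HC library. These intervals take the cells of a pool as units, cover counting error only and give no spread between pools. Alox5ap was also highest in CSD in the empty droplets, at 710, 842 and 1105 CPM, and neutrophil-like cells made up 33.4% of CSD cells against 21.9% and 22.3% of HC cells. The part of either in the Alox5ap differences was not tested. An interaction term set the change in the neutrophil lineage against that in monocyte-like cells, and gave 0.28 ± 0.13 (SE; edgeR adjusted p = 0.585) for Alox5ap, in a test that called 0.0321% of 3120 genes and 0 of the 5 members in it. Alox5ap alone of the 5 had an unadjusted p below 0.05, and DESeq2 called 1 gene, which was no member.

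The remaining leukotriene and cyclooxygenase genes showed no difference that passed. Alox5 differed by 0.48 in immature neutrophil-like cells (edgeR adjusted p = 0.936), and Lta4h by 0.10 in the same cells, 0.14 in conventional dendritic cell-like and 0.62 in NK cell-like cells. Ltc4s differed by 0.18 in microglia-like and -0.66 in border macrophage-like cells, where the HC libraries themselves differed by -1.26 and the difference became 0.20 without HC replicate 1. Ptgs1 differed by 0.06, -0.19 and -0.59 in microglia-like, immature neutrophil-like and border macrophage-like cells. Hpgds differed by -0.03 in microglia-like and -0.48 in border macrophage-like cells. With 1 CSD pool, a p that misses the threshold does not show that these genes were alike in CSD and HC.

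**Figure D4:**
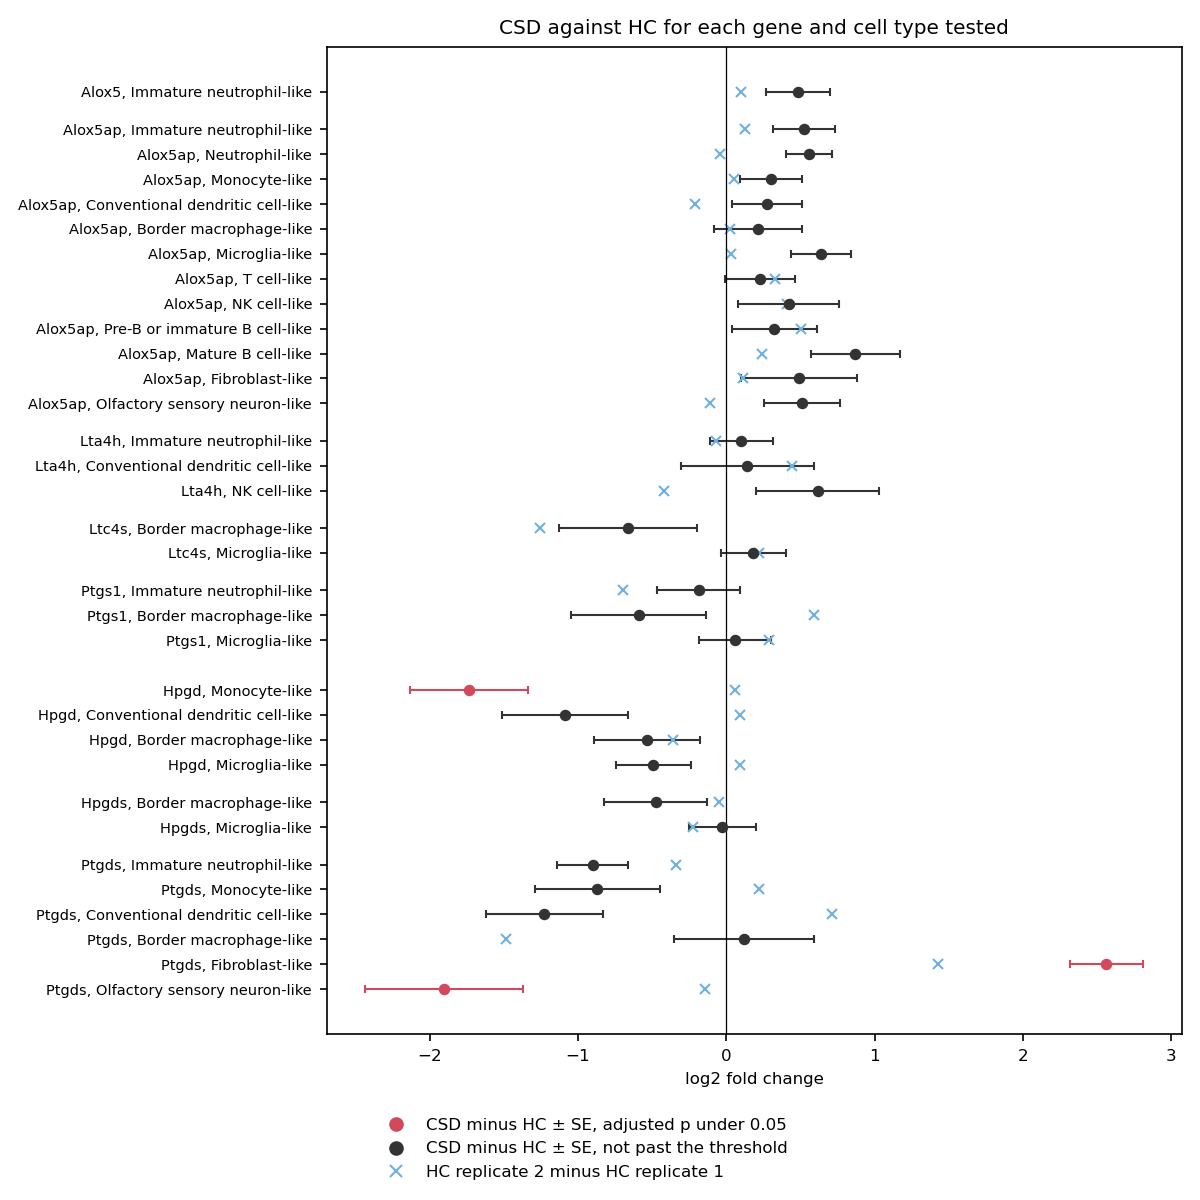
Difference between CSD and HC on the log2 scale (edgeR, error bars are SE) for the 33 pairs of a gene and a cell type that were tested; red marks the 3 with adjusted p under 0.05 and crosses give HC replicate 2 minus HC replicate 1. Alox5ap lies above 0 in all 12 types, 3 of which turned sign when cells were thinned to 500 UMIs, and Hpgd below 0 in all 4.

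The other 55 genes of the pathway were read by role, in 64 tests of a gene in a type, of which 1 was called and none with a lower level in CSD. This was Dpep2, a dipeptidase that converts leukotriene D4 to E4, which rose in monocyte-like cells from 33.5 and 23.3 CPM to 78.0 CPM, on 17, 10 and 44 UMIs. Its log2 change was 1.44 ± 0.39 (SE; edgeR adjusted p = 0.0186), and over 11 settings it passed in 6 and ran from 0.02 to 1.48. It was 1 of 16 tests among 9 genes of leukotriene conversion, export and breakdown, with a median difference of 0.38. In that list Cyp4f18, which degrades leukotriene B4, was highest in neutrophil-like cells at 272, 356 and 350 CPM, and Mgst3 in olfactory sensory neuron-like cells at 678 ± 43.0 CPM.

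Of 7 leukotriene and lipoxin receptor genes, 3 were tested and none of 9 tests passed, with a median of 0.05. Ltb4r1, the high-affinity leukotriene B4 receptor, was highest in immature neutrophil-like cells at 277, 373 and 384 CPM, the cells that also held most Lta4h. Fpr2 was highest in neutrophil-like cells at 272 ± 10.3 CPM. None of 32 tests over 8 prostanoid synthase genes passed, with a median of -0.07, and the 2 genes with the highest mean over the named types reached 1609 ± 278 CPM (Fam213b, olfactory sensory neuron-like cells) and 186 ± 12.5 CPM (Akr1b3, pre-B or immature B cell-like cells). Tbxas1, the thromboxane synthase, named here after its values were seen, held 199, 147 and 272 CPM in microglia-like cells. Of 11 phospholipase genes 3 were tested and none of 6 tests passed, with a median of -0.24. There Pla2g7, which degrades platelet-activating factor, held 103 ± 31.7 CPM in neutrophil-like cells and Pla2g15 166 ± 65.2 CPM in microglia-like cells.

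The 6 other lipoxygenase genes and the 4 genes of prostanoid transport and breakdown passed the filter in no type. Alox15 and Alox8 did not exceed a mean of 1.61 CPM in any of the 12 types, and Ptgr2 reached 28.4 ± 8.77 CPM in NK cell-like and Abcc4 20.5 ± 12.6 CPM in fibroblast-like cells. Of 10 prostanoid receptor genes only Ptgdr, a prostaglandin D2 receptor named here as the one tested, passed the filter, in fibroblast-like cells, with 85.7, 89.2 and 83.7 CPM and a difference of -0.02. Among the 12 tested types Tbxa2r, the thromboxane receptor, reached 11.2 ± 7.18 CPM in T cell-like cells and Ptger4, a prostaglandin E2 receptor, 30.7 ± 20.2 CPM in border macrophage-like cells.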

How the data were processed

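Droplet-based single-cell RNA-seq was done on meninges in 3 libraries. Per the labels and the submitters' processing notes, the authors aligned reads to mm10 and counted UMIs per gene and barcode with Cell Ranger 2, and deposited these counts as unfiltered matrices. No column of another sample was present (0 columns). The 9 genes, the other pathway lists and the tests were chosen with earlier results of these data known.

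Cells were kept by the cutoffs given above, scaled with scran 1.30.0, corrected over libraries by mutual nearest neighbours (50 components) and clustered with the Leiden algorithm at resolution 1 (scanpy 1.11.5, leidenalg 0.10.2). Member, pathway, mitochondrial and ribosomal protein genes were left out of the clustering. Clusters were named from fixed marker lists and stayed unnamed where the markers did not decide. Doublets were kept in the main values. Scrublet marked 1.81%, 1.47% and, by rank because its automatic cutoff marked only 0.145%, 5.52% of cells of HC replicate 1, HC replicate 2 and CSD, and their removal was an alternative.

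UMIs were summed per library and type and tested with edgeR 4.0.16 (TMM normalization, glmQLFit and glmQLFTest, R 4.3.3) for genes with a UMI in over 15% of the cells of the type, and the adjusted p threshold was 0.05. DESeq2 1.42.0 was an alternative. Libraries, each a pool of 4 mice, were the samples, and the 2 HC pools left 1 residual degree of freedom. The tests were checked on simulated counts. Libraries held 8814690 to 10206236 UMIs, with a median of 2212 to 2503 per cell. Named genes were all 9 members in every named type, pathway genes past the threshold, the 2 of each other list with the highest mean over named types, and for each member the genes nearest in profile (3 sought, the nearest given; that of Hpgd is not reported here). Gene positions are from GENCODE M21 on mm10. Free RNA in droplets adds to low levels, so the empty droplets are given beside them. The alternatives and their effects are in the closing section; leaving out the 3 highest cells was chosen after seeing the data.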

Additional observations from a re-analysis of the deposited data

Results flagged for a closer look

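Alox5ap in the empty droplets of the CSD library, barcodes that no comparison between groups used, stood at 1105 CPM against 710 and 842 CPM in the HC libraries. The exact 95% interval of the CSD value, 1019 to 1196 CPM, did not overlap those of the HC libraries, 653 to 772 and 803 to 882 CPM, and these intervals cover counting error only. Ptgds was called in opposite directions in 2 cell types, with a log2 difference between CSD and HC of 2.56 in fibroblast-like cells and -1.90 in olfactory sensory neuron-like cells. Both HC libraries lay on the same side of the CSD value in each type, and the difference between the cell types was not itself tested. With 2 HC libraries and 1 CSD library, no group was large enough to look for single outlying samples.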

How the results depend on the processing

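Among the recomputed differences between CSD and HC, 422 were counted as unchanged. Where a test was made, these kept their direction and their side of the threshold. With 1 HC library left out there was no test, and they lay within the SE of the main value whatever their sign. Of the rest, 19 lost the call (5 of them Dpep2), 2 gained one (both Alox5ap) and 12 turned sign. Another 8, each with 1 HC library left out, moved by at least the SE. Uncalled differences that turned sign with 1 HC library left out, such as Ltc4s in border macrophage-like cells, are not among the 12. Each gene kept its highest cell type in 72 of 72 checks (8 settings, 9 genes). Ptgds in fibroblast-like cells missed the threshold with DESeq2 (2.57), and leaving out 1 HC library gave 2.01 to 3.45. Hpgd in monocyte-like cells missed it with DESeq2 (-1.74), cells of at least 1000 UMIs (-1.88), no library correction (-1.69), the empty-droplet profile subtracted (-1.83) and cells thinned to 500 UMIs (-1.87). Ptgds in olfactory sensory neuron-like cells missed it with DESeq2 (-1.91), Scrublet doublets removed (-1.65), at least 1000 UMIs (-1.95), mitochondrial share under 5% (-1.75), no library correction (-1.94), pathway genes kept in the clustering (-1.94), subtraction (-4.92) and thinning (-5.36). Uncalled differences turned sign under thinning for Alox5ap in border macrophage-like (-0.10), T cell-like (-0.036) and NK cell-like (-0.54), Ptgds in border macrophage-like (-0.053) and monocyte-like (0.16), Lta4h in conventional dendritic cell-like (-1.05), Ptgs1 in immature neutrophil-like (0.11) and Hpgds in microglia-like cells (0.053). They turned under subtraction for Lta4h in immature neutrophil-like (-0.043) and Ptgs1 in microglia-like cells (-0.12), with genes of at least 20 UMIs for Hpgds in microglia-like cells (0.0012) and with doublets removed for the Ptgds interaction (-0.0024).

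Genes called in fibroblast-like cells (17) became 28 with DESeq2 size factors, 0 with DESeq2, 7 without doublets, 27 without correction, 37 under subtraction and 2 under thinning. Those in monocyte-like cells (42) became 1 with DESeq2, at least 1000 UMIs, no correction or subtraction, and 5 under thinning. Those in olfactory sensory neuron-like cells (30) became 1 with DESeq2, 47 with genes of at least 20 UMIs, 14 without doublets, 0 with mitochondrial share under 5%, 2 under subtraction and 0 under thinning. Those in the 9 other types (45) became 25 with DESeq2, 206 with genes of at least 20 UMIs, 9 without doublets, 10 at 1000 UMIs, 21 at 5% mitochondrial share and 14 at Leiden resolution 2. The interaction (1) became 9 with genes of at least 20 UMIs, 22 without doublets and 2 under subtraction. The cause of these changes was not tested. Mean levels in CPM moved for Lta4h in immature neutrophil-like cells (234), to 193 under thinning, 263 under subtraction, 173.7 without doublets, 245 at 1000 UMIs and 173 without correction. In microglia-like cells Ltc4s moved to 901 and 876, Hpgds to 570.2 and 587, thinned and subtracted, Hpgd to 214 thinned and Ptgs1 to 567 subtracted, and Ptgs2 in neutrophil-like cells to 105 thinned. No paired analysis was possible because HC and CSD share only 1 replicate number. The 22 fibroblast-like cells of CSD and the 317 UMIs of Ptgs2 limit precision.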

Other observations

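Outside the 12 tested types, Ptgds stood at 544 CPM in erythroid cell-like cells of CSD, where 1 cell held 162 of the 180 UMIs. Mast cell or basophil-like cells, 11, 8 and 18 cells in HC replicate 1, HC replicate 2 and CSD, held 1700, 2507 and 1714 CPM of Alox5ap, a range that overlapped that of neutrophil-like cells. Myeloid progenitor-like cells held 175, 72.9 and 69.8 CPM of Lta4h, below the 232 to 238 CPM of immature neutrophil-like cells in every library.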
